A study of Mus musculus with 14 samples.

Results

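The 10 genes described here, Cadps2, Calb1, Rasgrf2, Mdga1, Kitl, Wfs1, Otof, Syt17, Dgkb and Tmem215, mark neurons of cortical layers II to IV and encode effector proteins rather than transcription factors. They were taken by symbol from a list whose rule names no measured value, but were chosen with earlier results of these data known. The shares called among them are therefore not those of a choice blind to the data. All 10 were found in the progenitor table of 25229 symbols and in the postmitotic table of 55353 symbols, which share 24690 symbols, and all 10 passed the filter on low counts in both. The series asks how loss of Lhx2, a LIM-homeodomain transcription factor, acts on the dendrites of layer II/III neurons when the gene is deleted in progenitors or only in neurons that have stopped dividing. RNA came from layer II/III microdissected at postnatal day 5 from mouse cortex, and 14 libraries form 4 groups. In the progenitor experiment, Lhx2lox/lox embryos received plasmid by in utero electroporation at E15.5, either EGFP (control, n = 4) or Cre-EGFP (labelled mutant, n = 4). For the postmitotic experiment, controls were Lhx2lox/lox (n = 3), the group labelled mutant was NexCre/+; Lhx2lox/lox (n = 3), and both received the EGFP plasmid. All 4 groups therefore carried the floxed Lhx2 alleles and an EGFP-expressing plasmid. Electroporation reaches only a share of the cells of a layer, and the sample titles speak of labelled neurons while the protocols name microdissection and trypsin dissociation but no sorting step, so a part of the RNA from cells without plasmid cannot be told apart. NexCre is an allele of Neurod6 that drives Cre in young excitatory neurons, and its carriers differ from their controls by that allele as well as by recombination. Cells without plasmid thus received no Cre in the progenitor experiment, while NexCre did not depend on the plasmid.

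Upper-layer pyramidal neurons connect cortical areas with one another and with the opposite hemisphere. Their identity is set by transcription factors such as Cux1 and Cux2, while the proteins that do the work of these cells include regulators of vesicle release, calcium buffers, lipid and Ras signalling enzymes, and adhesion molecules. The 10 genes cover these roles. Cadps2, Otof and Syt17 belong to the machinery of vesicle traffic and release, Calb1, Rasgrf2 and Dgkb act in calcium and second-messenger signalling, Kitl and Mdga1 act at the cell surface, and Wfs1 and Tmem215 encode membrane proteins inside the cell or of less defined place. Several of these genes are also used by other cells of the cortex, Calb1 by interneurons for example.

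Library totals ran from 22677019 to 29497595 counts in the progenitor experiment and from 21605777 to 25891416 counts in the postmitotic one, and every progenitor control was deeper than every progenitor library labelled mutant. Levels are given in CPM, the read count of a gene scaled to a common library size by TMM. The targeted gene did not show the deletion: Lhx2 stood at 127 ± 9.10 and 129.5 ± 11.4 CPM in progenitor controls and libraries labelled mutant, and at 147 ± 3.48 and 179 ± 7.41 CPM in the postmitotic ones (SD), where it was higher (log2 fold change 0.29 ± 0.06, edgeR adjusted p = 0.0276), so groups are named by their labels. Counts over the whole gene include transcripts that lack only a deleted segment. Counts of Y-linked genes above 1 CPM were found in 0 of 4 controls and 3 of 4 libraries labelled mutant of the progenitor experiment, and in 2 of 3 controls and 1 of 3 libraries labelled mutant of the postmitotic one. The third progenitor library labelled mutant held both Y-linked counts (99.4 CPM) and Xist (554 CPM). Sex and label are therefore largely confounded in the progenitor experiment, and values with Y-linked CPM as a covariate are given beside the results whose calls they change. The labels do not tie libraries to separate animals, so the tests measure only how much these libraries vary, which may be partly technical. In bulk tissue, fewer cells of a type and less RNA per cell cannot be told apart.

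Of the 10 genes, 7 were lower and 2 were higher in progenitor libraries labelled mutant than in their controls. Calls rest on edgeR's quasi-likelihood test with p-values adjusted over all tested genes (Benjamini-Hochberg) and a threshold of 0.05. Over all 15295 tested genes, 23.4% were called, 11.4% lower and 12% higher. Cadps2, Calb1, Kitl, Otof, Syt17, Dgkb and Tmem215 fell, Rasgrf2 and Mdga1 rose, and Wfs1 did not pass the test. In the postmitotic experiment 3 of the 10 genes were lower, Cadps2, Kitl and Dgkb, and 0 were higher, where 1.96% of 17775 tested genes were called, 1.06% lower and 0.895% higher. Otof was the gene higher there at an unadjusted p under 0.05, and a rerun of DESeq2 after the same filter called it. The only 3 genes of the 10 called in the same direction in both experiments were thus Cadps2, Kitl and Dgkb, whereas 0.464% of the 14449 genes tested in both experiments were called lower in both. With Y-linked CPM as a covariate, 0 of these 3 genes passed in the progenitor experiment and Cadps2 and Dgkb passed in the postmitotic one, so 0 of the 10 were then called in both. That covariate largely follows the label in the progenitor experiment, where calls over all tested genes also became fewer (counts are given below). Of the 10 genes, 2 higher and 3 lower were still called there. Whether sex played a part in the lost calls was not tested. CPM of the groups did not overlap for 9 genes in the progenitor experiment (27.0% of all tested genes) and for 6 in the postmitotic one (16.4%). The median log2 fold change of the 10 genes was -0.38 (progenitor) and -0.18 (postmitotic), beside 0.00 in both experiments for all tested genes. Their summed level was nevertheless higher in progenitor libraries labelled mutant, at 702 to 790 CPM against 630 to 680 CPM in controls. Mdga1 and Rasgrf2, which rose, were the most abundant of the 10. In the postmitotic experiment the sum was 475 to 570 CPM in libraries labelled mutant against 595 to 619 CPM. The authors' deposited tables called the same 9 and 3 of these genes, all with the same sign.

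**Figure D1:**
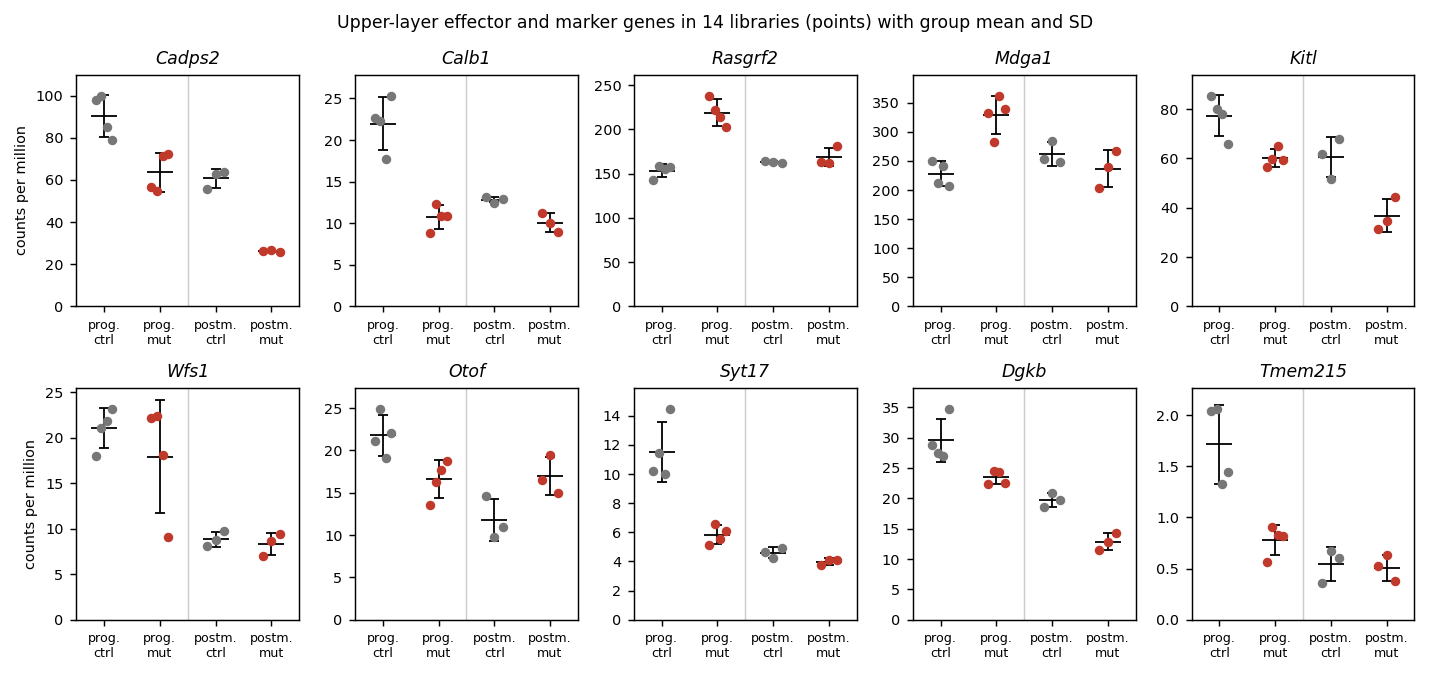
CPM of each of the 10 genes in each library (points), for progenitor (prog.) and postmitotic (postm.) controls (ctrl, grey) and libraries labelled mutant (mut, red), with the group mean and SD (bars). Cadps2, Kitl and Dgkb lie lower in the red groups of both experiments, while Rasgrf2 and Mdga1 are higher in the progenitor libraries labelled mutant.

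Cadps2 showed the largest postmitotic fall of the 10. It encodes CAPS2, a priming factor for dense-core vesicles that promotes the release of neuropeptides and neurotrophins, and lies on chromosome 6, 23262773 to 23839421, minus strand (GRCm38/mm10). Postmitotic controls 1 to 3 held 55.6, 62.8 and 63.8 CPM and the libraries labelled mutant 26.4, 26.9 and 25.7 CPM. The 3 libraries labelled mutant lay within 1.2 CPM of each other and all were below the lowest control. Their level was 43.4% of control, a log2 fold change of -1.20 ± 0.08 (SE, n = 3 each, edgeR adjusted p = 2.68e-06), which ranked 6 by p among the 17775 tested genes. In the progenitor experiment the controls held 97.7, 99.98, 85.2 and 79.0 CPM and the libraries labelled mutant 56.4, 54.8, 71.1 and 72.1 CPM, again without overlap. The level fell there by 0.51 ± 0.11 on the log2 scale (n = 4 each, edgeR adjusted p = 0.00907), to 70.3% of control. With the Y-linked CPM as a covariate the progenitor change was -0.67 (edgeR adjusted p = 0.0523), and in the 5 libraries without Y-linked counts, of which 1 is labelled mutant, it was -0.70 (edgeR adjusted p = 0.0444). Small genes inside Cadps2, among them Rnf133 and Rnf148 on the same strand, overlap its span.

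Kitl, the ligand of the receptor tyrosine kinase Kit and also known as stem cell factor, was lower in both experiments. It lies on chromosome 10, 100015630 to 100100416, plus strand, where no other annotated gene overlaps it. Postmitotic controls held 61.8, 51.7 and 67.7 CPM and the libraries labelled mutant 31.4, 34.7 and 44.4 CPM, so the groups were apart although both spread widely. The fall of 0.71 ± 0.14 on the log2 scale (n = 3 each, edgeR adjusted p = 0.0255) left 61.0% of control. Its call was lost without control 1 or 3 or without library 1 or 2 labelled mutant, with edgeR adjusted p up to 0.170, while the log2 fold change stayed at -0.87 to -0.61. With Y-linked CPM as a covariate the postmitotic edgeR adjusted p was 0.104. Progenitor controls held 85.5, 79.9, 78.1 and 65.9 CPM against 56.4, 59.7, 65.1 and 59.5 CPM in the libraries labelled mutant, a gap of less than 1 CPM between the lowest control and the highest of the others. That progenitor fall was 0.36 ± 0.08 (n = 4 each, edgeR adjusted p = 0.00706), with an edgeR adjusted p of 0.0663 once Y-linked CPM entered as a covariate. Kit, its receptor, passed in neither experiment, at -0.21 ± 0.12 (progenitor) and 0.17 ± 0.08 (postmitotic) on the log2 scale.

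Dgkb encodes diacylglycerol kinase beta, which turns diacylglycerol into phosphatidic acid at neuronal membranes and is known to support neurite branching and spines in cultured hippocampal neurons. It lies on chromosome 12, 37817726 to 38634239, plus strand. Postmitotic controls held 18.6, 20.8 and 19.7 CPM and the libraries labelled mutant 11.5, 12.8 and 14.3 CPM. Every library labelled mutant was below every control, and the fall was 0.62 ± 0.11 on the log2 scale (n = 3 each, edgeR adjusted p = 0.0108), to 65.3% of control. Without postmitotic control 2 the edgeR adjusted p was 0.0884. In the progenitor experiment 28.9, 27.5, 27.0 and 34.7 CPM in controls stood against 22.4, 24.5, 24.4 and 22.6 CPM, with control 4 well above the other controls. The progenitor fall of 0.33 ± 0.08 (n = 4 each, edgeR adjusted p = 0.0155) was the smallest called among the 10 genes. Its edgeR adjusted p was 0.0512 without library 1 labelled mutant and 0.118 with the Y-linked covariate. Annotated noncoding genes on either strand overlap Dgkb. Whether the counting used strand is not stated in the labels or file headers.

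The RefSeq promoters of Cadps2, Kitl and Dgkb (250 bases before to 50 after the annotated start, GRCm38.p6, 5′ to 3′ on the gene's strand) are shown because these genes were called lower in both. They lie at chr6:23839372-23839671 (minus strand), chr10:100015571-100015870 (plus strand) and chr12:37879924-37880223 (plus strand), and capitals mark CpG dinucleotides.
Cadps2: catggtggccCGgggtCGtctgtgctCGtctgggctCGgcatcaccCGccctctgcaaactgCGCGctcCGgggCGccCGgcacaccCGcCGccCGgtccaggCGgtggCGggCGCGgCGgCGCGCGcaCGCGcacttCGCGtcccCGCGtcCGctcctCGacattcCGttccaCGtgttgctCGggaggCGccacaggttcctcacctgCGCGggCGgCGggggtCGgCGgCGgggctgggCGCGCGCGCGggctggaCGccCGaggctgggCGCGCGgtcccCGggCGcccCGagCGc
Kitl: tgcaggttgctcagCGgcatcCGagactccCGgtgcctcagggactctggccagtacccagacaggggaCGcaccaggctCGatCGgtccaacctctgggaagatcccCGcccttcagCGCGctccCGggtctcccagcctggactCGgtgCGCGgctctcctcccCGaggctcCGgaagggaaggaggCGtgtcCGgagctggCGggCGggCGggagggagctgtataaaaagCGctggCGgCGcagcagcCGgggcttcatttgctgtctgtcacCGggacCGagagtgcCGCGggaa
Dgkb: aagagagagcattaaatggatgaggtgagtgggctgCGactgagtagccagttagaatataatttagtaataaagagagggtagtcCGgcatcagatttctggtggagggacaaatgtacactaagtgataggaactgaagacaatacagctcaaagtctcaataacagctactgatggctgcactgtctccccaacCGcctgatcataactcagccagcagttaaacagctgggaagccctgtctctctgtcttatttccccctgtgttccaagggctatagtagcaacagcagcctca
These promoters differ in base composition. Cadps2 has 79.7% G and C and 54 CpG dinucleotides, Kitl has 68.7% and 28, and Dgkb has 46.3% and 3, beside medians of 52.7% and 7 over the 32851 promoters of the table. The homeodomain words TAATTA and TAATTG, searched on both strands, were found in 0 of these 3 windows and in 5.29% and 8.0% of all promoters. The start used for Dgkb lies inside the longer gene span given by GENCODE.

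Calb1 and Syt17 fell in the progenitor experiment by close to 1 on the log2 scale. Calb1 encodes calbindin, an EF-hand protein that buffers calcium, and lies on chromosome 4, 15881264 to 15908064, plus strand. Its progenitor controls held 22.6, 22.3, 17.7 and 25.3 CPM and the libraries labelled mutant 8.83, 12.3, 10.9 and 10.9 CPM. Every library labelled mutant was well below the lowest control, and the level was 48.8% of control (log2 fold change -1.03 ± 0.12, n = 4 each, edgeR adjusted p = 0.000271). The call held in all 16 alternatives, the Y-linked covariate included, with log2 fold changes from -1.33 to -0.95. Postmitotic controls held 13.1, 12.5 and 12.9 CPM and the libraries labelled mutant 11.2, 10.03 and 8.90 CPM. These groups did not overlap either, but the change of -0.35 ± 0.12 did not pass the test (95% interval -0.61 to -0.09, n = 3 each, edgeR adjusted p = 0.229). Its relative Calb2, the calretinin gene, had log2 fold changes of -0.38 ± 0.13 and -0.61 ± 0.15 in the progenitor and postmitotic experiments and passed in neither.

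Since Calb1 is also made by interneurons, their markers are given beside it. Of 20 interneuron markers 19 were tested, and in the progenitor experiment 3 fell and 0 rose, where 23.4% of all tested genes were called. Those that fell included Slc32a1 (-0.53 ± 0.10) and Gad1 (-0.33 ± 0.09, log2 ± SE). At an unadjusted p under 0.05, 3 markers were higher and 6 lower there, and DESeq2 called 0 higher and 4 lower. The summed level of the listed markers ran from 961 to 1221 CPM in progenitor controls and from 975 to 1077 CPM in the libraries labelled mutant, so the groups overlapped. Postmitotic libraries gave 0 calls of the 19 in edgeR, with 2 higher and 1 lower at an unadjusted p under 0.05 and 1 lower in DESeq2. The smallest p values were those of Calb2 and Lhx6 (0.26 ± 0.09). Without progenitor control 3, 7 of the 19 were called, and with the Y-linked covariate 0 were. No marker of the list was at 0 in all libraries. The part of interneurons in the Calb1 result was not tested.

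Syt17 encodes an atypical synaptotagmin, a relative of the calcium sensors of transmitter release that takes part in membrane traffic in neurons. It lies on chromosome 7, 118380717 to 118448222, minus strand. Progenitor controls held 10.2, 11.5, 10.01 and 14.5 CPM and the libraries labelled mutant 5.13, 6.60, 5.52 and 6.09 CPM, with control 4 highest and no overlap. The level was 50.5% of control (log2 fold change -0.99 ± 0.14, n = 4 each, edgeR adjusted p = 0.000721), and this call too held in all 16 alternatives. Postmitotic values were 4.64, 4.22 and 4.95 CPM in controls and 3.74, 4.13 and 4.10 CPM in the libraries labelled mutant. They lay close together without overlap, and the change of -0.21 ± 0.15 did not pass (95% interval -0.53 to 0.12, n = 3 each, edgeR adjusted p = 0.676).

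Otof fell in the progenitor experiment and stood higher, without passing the test, in the postmitotic one. It encodes otoferlin, the calcium sensor of vesicle release in the hair cells of the inner ear, and marks layer II/III neurons in mouse cortex. It lies on chromosome 5, 30367062 to 30461932, minus strand. Progenitor controls held 21.1, 24.9, 19.1 and 22.1 CPM and the libraries labelled mutant 13.6, 16.3, 17.7 and 18.8 CPM. The groups were separated by less than 1 CPM, and the fall was 0.39 ± 0.11 on the log2 scale (n = 4 each, edgeR adjusted p = 0.0236). That call was lost without control 2 or 4 or without library 1 or 2 labelled mutant, with edgeR adjusted p up to 0.0672. Postmitotic controls held 14.6, 9.83 and 10.96 CPM, below the 16.5, 19.5 and 15.003 CPM of the libraries labelled mutant. The gap between the highest control and the lowest of the others was narrow, and the change of 0.53 ± 0.15 did not pass (n = 3 each, edgeR adjusted p = 0.132). It did pass in a rerun of DESeq2 after the same filter (adjusted p = 0.0322), with all genes that had a count kept (edgeR adjusted p = 0.00388), and without control 1 (edgeR adjusted p = 0.0334). The other 11 of 14 alternatives left it uncalled, and it did not pass in the authors' deposited DESeq2 results (adjusted p = 0.204).

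Rasgrf2 and Mdga1 were the 2 genes that rose in the progenitor experiment. Rasgrf2 encodes an exchange factor that is activated through calcium and calmodulin and switches on Ras and Rac. It lies on chromosome 13, 91880400 to 92131656, minus strand. Progenitor controls held 143, 158, 155 and 158 CPM and the libraries labelled mutant 238, 221, 214 and 202 CPM, so even the lowest of the latter stood far above the highest control. The rise was 0.51 ± 0.06 on the log2 scale (n = 4 each, edgeR adjusted p = 0.000224), to 143% of control, and was called in all 16 alternatives. Among postmitotic libraries 165, 164 and 162 CPM in controls stood beside 164, 162 and 181 CPM. Libraries 1 and 2 labelled mutant were within or just under the range of the controls and library 3 was above them, for a change of 0.05 ± 0.06 (95% interval -0.09 to 0.18, n = 3 each, edgeR adjusted p = 0.847). Without library 3 the postmitotic value was -0.01, that is, of the opposite sign. Its relative Rasgrf1 moved the other way in the progenitor experiment, from 16.7 to 7.72 CPM (log2 fold change -1.11 ± 0.12, edgeR adjusted p = 0.000157), and did not pass in the postmitotic one (0.24 ± 0.14).

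Mdga1 encodes a glycolipid-anchored adhesion protein of the immunoglobulin family that binds neuroligin and limits its contact with neurexin. It lies on chromosome 17, 29827949 to 29970087, minus strand, with the noncoding Gm16758 on the opposite strand. Progenitor controls held 251, 213, 242 and 206 CPM and the libraries labelled mutant 333, 283, 362 and 339 CPM. The groups did not overlap, and the rise was 0.53 ± 0.08 on the log2 scale (n = 4 each, edgeR adjusted p = 0.00160), to 145% of control. Among the 5 libraries without Y-linked counts the change was 0.53 (edgeR adjusted p = 0.0648). Postmitotic controls held 254, 285 and 248 CPM and the libraries labelled mutant 203, 239.6 and 267 CPM, with broad overlap and a change of -0.15 ± 0.09 (95% interval -0.35 to 0.06, n = 3 each, edgeR adjusted p = 0.619). Its relative Mdga2 had log2 fold changes of 0.11 ± 0.10 and 0.13 ± 0.07 and passed in neither experiment.

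The RefSeq promoters of the pair that rose (same window, build and marking) lie at chr13:92131779-92132078 and chr17:29887833-29888132, both on the minus strand, and are shown for comparison with those of the genes that fell.
Rasgrf2: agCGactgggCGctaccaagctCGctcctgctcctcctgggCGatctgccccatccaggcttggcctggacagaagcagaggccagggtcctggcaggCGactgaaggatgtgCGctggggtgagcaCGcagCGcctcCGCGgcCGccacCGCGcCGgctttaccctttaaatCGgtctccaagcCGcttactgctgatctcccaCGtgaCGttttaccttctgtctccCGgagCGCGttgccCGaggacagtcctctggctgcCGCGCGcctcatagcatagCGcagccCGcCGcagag
Mdga1: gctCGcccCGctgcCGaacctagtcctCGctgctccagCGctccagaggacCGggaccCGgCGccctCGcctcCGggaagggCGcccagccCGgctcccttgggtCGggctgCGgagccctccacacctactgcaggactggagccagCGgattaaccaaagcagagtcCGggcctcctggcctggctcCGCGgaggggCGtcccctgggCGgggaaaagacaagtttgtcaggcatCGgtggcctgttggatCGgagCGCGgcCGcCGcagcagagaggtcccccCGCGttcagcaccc
Both are rich in CpG dinucleotides, with 28 each and 66.0% and 71.3% G and C, close to the Kitl promoter. Neither TAATTA nor TAATTG was found in them. The E-box word CAGATG, a form bound by proneural factors such as NEUROG2, was found on either strand in 0 of the 5 promoters printed, in those of 2 of the 7 matched genes, Wfs1 and Tmem215, and in 17.2% of all promoters. TAATTA and TAATTG share their first 5 letters, and CAGATG overlaps neither. The Mdga1 window, like that of Dgkb, lies inside the GENCODE span of its gene, and that of Rasgrf2 begins just beyond it.

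Wfs1 and Tmem215 were the genes with the least certain values. Wfs1 encodes wolframin, a membrane protein of the endoplasmic reticulum, and lies on chromosome 5, 36966104 to 36989205, minus strand. Progenitor controls held 18.04, 21.1, 21.9 and 23.2 CPM and the libraries labelled mutant 22.2, 22.4, 18.1 and 9.08 CPM. Libraries 1 to 3 labelled mutant lay within the range of the controls, whereas library 4 was at less than any other progenitor library. The change of -0.23 ± 0.25 did not pass (95% interval -0.82 to 0.35, n = 4 each, edgeR adjusted p = 0.551), and without library 4 labelled mutant it was -0.0101. Postmitotic Wfs1 ranged from 8.09 to 9.72 CPM in controls and from 6.998 to 9.40 CPM in the libraries labelled mutant, a change of -0.08 ± 0.14 (95% interval -0.39 to 0.22, edgeR adjusted p = 0.879).

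Tmem215, a transmembrane protein gene on chromosome 4, 40472180 to 40477168, plus strand, was the least abundant. Progenitor controls 1 to 4 held 50, 54, 35 and 42 counts and the libraries labelled mutant 13, 21, 20 and 19 counts, or 1.32 to 2.06 CPM against 0.566 to 0.905 CPM. Every library labelled mutant was below every control, and the fall was 1.13 ± 0.24 on the log2 scale (n = 4 each, edgeR adjusted p = 0.00730), to 45.8% of control. The edgeR adjusted p was 0.0512 with the Y-linked covariate. Postmitotic libraries held 9, 17 and 13 counts in controls and 13, 16 and 9 counts in those labelled mutant. At that depth no difference was detectable, and the 95% interval of the change, -0.90 to 0.73, is wide.

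**Figure D2:**
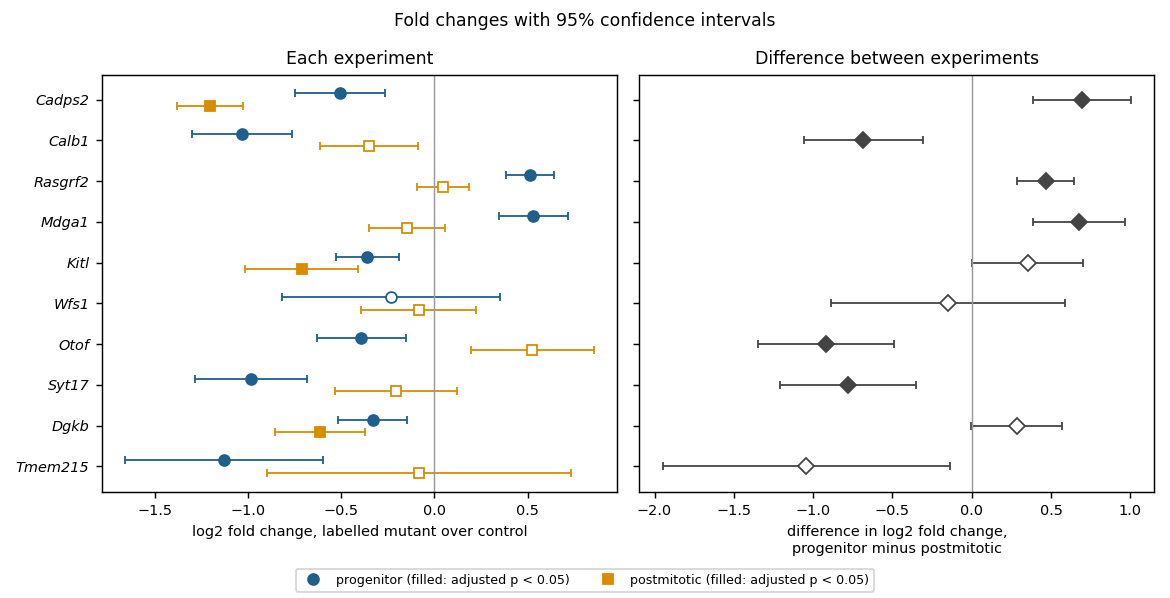
Left, log2 fold change of libraries labelled mutant over control with its 95% confidence interval in the progenitor (circles, n = 4 each) and postmitotic experiment (squares, n = 3 each); filled symbols passed an adjusted p of 0.05. Right, the difference between these changes, progenitor minus postmitotic, with its 95% interval; Otof, Syt17 and Calb1 are negative and Cadps2, Mdga1 and Rasgrf2 positive among the filled symbols.

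Whether a change differed between the experiments was tested as the interaction of experiment and label in a fit of all 14 libraries, over 15643 shared genes of which 6.94% were called. Of the 10 genes 6 were called. The change of Cadps2 was more negative in the postmitotic experiment, by 0.70 ± 0.15 on the log2 scale (progenitor minus postmitotic ± SE, edgeR adjusted p = 0.0101). Rasgrf2 (0.47 ± 0.09, edgeR adjusted p = 0.00458) and Mdga1 (0.68 ± 0.14, edgeR adjusted p = 0.00887) were higher in the progenitor experiment relative to the postmitotic one. Calb1 (-0.68 ± 0.18, edgeR adjusted p = 0.0277), Syt17 (-0.78 ± 0.20, edgeR adjusted p = 0.0287) and Otof (-0.92 ± 0.20, edgeR adjusted p = 0.0134) were more negative there. For Kitl and Dgkb, which were lower in both, the difference did not pass, at 0.35 ± 0.16 (95% interval 0.003 to 0.70) and 0.28 ± 0.14 (-0.0021 to 0.57). Tmem215 (-1.04 ± 0.43, 95% interval -1.95 to -0.14) and Wfs1 (-0.15 ± 0.34, -0.88 to 0.59) did not pass either. The call of Calb1 was lost without progenitor control 4, progenitor library 1 labelled mutant, any postmitotic control or postmitotic library 1 or 2 labelled mutant, with edgeR adjusted p up to 0.0887. That of Syt17 was lost without progenitor control 4, progenitor library 1 or 3 labelled mutant, postmitotic control 1 or 2 or postmitotic library 2 labelled mutant, with edgeR adjusted p up to 0.0733. Kitl passed without postmitotic library 3 labelled mutant (edgeR adjusted p = 0.0464). With Y-linked CPM as a covariate only Rasgrf2 passed (edgeR adjusted p = 0.0359). The experiments differ in the timing of Cre, in how it was delivered, in which cells it could reach and in their libraries, and these cannot be told apart.

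Per kilobase of exon, the 10 genes spanned a wide range of levels. In progenitor controls Mdga1 was highest at 23.9 ± 2.27 CPM per kilobase (SD, n = 4), followed by Rasgrf2 at 16.6 ± 0.761, Kitl at 13.1 ± 1.39 and Cadps2 at 9.46 ± 1.05, and the ranges of these 4 genes over the libraries did not overlap. Wfs1 at 5.56 ± 0.577 and Calb1 at 4.54 ± 0.653 CPM per kilobase overlapped in their ranges, as did Otof at 2.76 ± 0.308, Dgkb at 2.60 ± 0.312 and Syt17 at 2.22 ± 0.396. Tmem215 was lowest at 0.362 ± 0.0817 CPM per kilobase. In postmitotic controls the first 4 places were the same, with Mdga1 at 27.5 ± 2.09, Rasgrf2 at 17.7 ± 0.130, Kitl at 10.2 ± 1.38 and Cadps2 at 6.35 ± 0.464 CPM per kilobase (SD, n = 3). Behind them came Calb1 at 2.64 ± 0.0649, just above the range of Wfs1 at 2.33 ± 0.216, and then Dgkb at 1.73 ± 0.0998 and Otof at 1.49 ± 0.316, whose ranges overlapped. In both sets labelled mutant Mdga1, Rasgrf2, Kitl and Cadps2 again held the first 4 places. Controls of the separate tables, which hold different sets of symbols, were not tested against each other. Wfs1, Syt17 and Tmem215 are named here after their values were seen. They stood at 21.1 ± 2.19, 11.5 ± 2.06 and 1.72 ± 0.387 CPM in progenitor controls and at 8.84 ± 0.817, 4.61 ± 0.365 and 0.543 ± 0.165 CPM in postmitotic ones. Of the 10 genes, only Rasgrf2 and Mdga1 had a higher mean CPM in postmitotic than in progenitor controls.

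**Figure D3:**
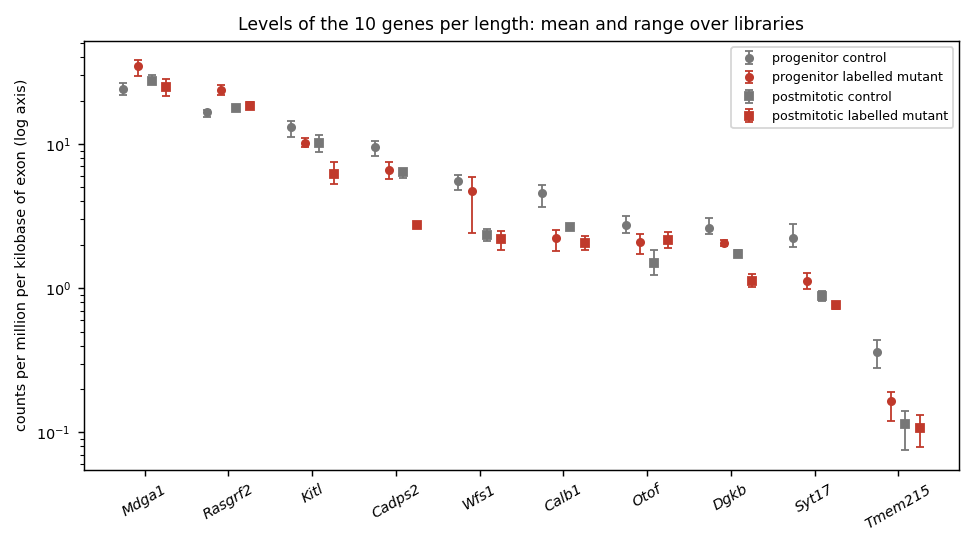
Mean level of each of the 10 genes in CPM per kilobase of exon (log axis), with the range over the libraries of a group, for controls (grey) and libraries labelled mutant (red) of the progenitor (circles) and postmitotic (squares) experiment. Genes are ordered by their mean in progenitor controls, from Mdga1 to Tmem215.

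Other genes of upper-layer neurons changed in both directions. Of 40 listed genes 38 were tested in each experiment, where 23.4% (progenitor) and 1.96% (postmitotic) of all tested genes were called. Among the 38, 6 rose and 5 fell in the progenitor experiment, with a median log2 fold change of -0.11. The smallest p values were those of Inhba, an activin subunit (1.07 ± 0.11, log2 ± SE), Cartpt, a neuropeptide precursor (-1.64 ± 0.20), and Pou3f3, a POU transcription factor (0.37 ± 0.06). Among postmitotic libraries 4 rose and 5 fell, with a median of -0.03, led by Lmo4, a LIM-only protein (-1.25 ± 0.06), Cdh13, a cadherin (0.59 ± 0.07), and Cux1 (-0.47 ± 0.06). Leaving out 1 library at a time gave 5 to 10 progenitor and 5 to 8 postmitotic calls, and with Y-linked CPM as a covariate 1 rose and 2 fell in the progenitor experiment. Chn2, a Rac-regulating chimaerin named after its values were seen, fell in both (-0.37 ± 0.11 and -0.63 ± 0.09), as Cadps2, Kitl and Dgkb did. Gfra2, also named after its values were seen, was called in both with opposite signs. It fell in the progenitor experiment (-0.44 ± 0.12) and rose in the postmitotic one (0.40 ± 0.10). Deep-layer and subplate genes gave 1 risen and 4 fallen of 30 in the progenitor experiment (median -0.21) and 9 risen and 1 fallen in the postmitotic one (median 0.30). Their leading genes were Pcp4 (-0.40 ± 0.09), Cplx3 (-1.80 ± 0.45) and Nr4a2 (-2.07 ± 0.50) in the former and Lmo3 (-1.01 ± 0.09), Ldb2 (0.91 ± 0.09) and Thsd7b (0.99 ± 0.12) in the latter. Without 1 library the counts ran from 1 to 9 and from 4 to 13, and with the Y-linked covariate 0 passed in the progenitor experiment while 7 rose and 1 fell in the postmitotic one.

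Relatives of the 10 genes mostly did not pass the test, like all tested genes, of which 23.4% passed (progenitor) and 1.96% (postmitotic). Of 36 listed, 34 were tested in the progenitor experiment, where 3 rose and 4 fell, and 33 in the postmitotic one, where 1 fell and 0 rose. With the Y-linked covariate 1 rose and 2 fell in the progenitor experiment. Beside Rasgrf1, the progenitor calls with the smallest p were Dgkq, another diacylglycerol kinase (0.39 ± 0.06), and Syt13, another synaptotagmin (-0.47 ± 0.08). The postmitotic fall was that of Syt4, a synaptotagmin of secretory vesicles (-0.40 ± 0.07, edgeR adjusted p = 0.00844), and Syt6 (0.59 ± 0.15) did not pass. Cadps, the close relative of Cadps2, was more abundant than it and passed in neither experiment, with 230.4 and 221 CPM in progenitor controls and libraries labelled mutant (log2 fold change -0.06 ± 0.07) and a postmitotic change of -0.08 ± 0.06.

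Excitatory neuron markers were present throughout and fell in part. Of 8, 4 fell and 1 rose in each experiment, where 23.4% (progenitor) and 1.96% (postmitotic) of all tested genes were called. Camk2a (-0.81 ± 0.08), Slc17a7 (-0.78 ± 0.10) and Neurod2 (0.30 ± 0.06) led in the progenitor experiment. Emx1 (-0.80 ± 0.08), Slc17a6 (-1.08 ± 0.11) and Camk2a (-0.50 ± 0.08) led in the postmitotic one. Neurod6, the host gene of the NexCre allele and named after its values were seen, fell in the postmitotic experiment from 171 to 112 CPM (-0.61 ± 0.11, edgeR adjusted p = 0.0135). With the Y-linked covariate 3 of the 8 fell and 0 rose in the progenitor experiment, while the postmitotic counts were as before. The summed level of the 8 markers did not overlap between groups, with 2927 to 3542 CPM in progenitor controls against 2188 to 2456 CPM, and 1949 to 2207 CPM in postmitotic controls against 1765 to 1827 CPM. Taken singly, 27.0% (progenitor) and 16.4% (postmitotic) of all tested genes did not overlap either. Abundant genes weigh most in such a sum. Nrgn was the highest, from 1349 to 966 CPM (progenitor) and from 850 to 692 CPM (postmitotic, edgeR adjusted p = 0.138, not called). Among glial and vascular markers, the progenitor experiment had 1 risen and 4 fallen of 14 for astrocytes and radial glia, 3 risen of 12 for oligodendrocyte lineage, 2 fallen of 14 for microglia and 3 risen of 17 for vessels and meninges. The genes with the smallest p were Slc1a2 (-0.62 ± 0.11), Cspg4 (0.46 ± 0.07), Ctss (-0.40 ± 0.13) and Abcc9 (0.70 ± 0.12) in these lists. Their median log2 fold changes were -0.08, -0.19, -0.34 and 0.22 in the same order. The oligodendrocyte lineage median was thus negative although its edgeR calls were rises, and DESeq2 called 3 of its markers higher and 2 lower. Postmitotic libraries gave 0 edgeR calls in each of these lists, with 7 astrocyte markers lower and 2 vascular markers higher at an unadjusted p under 0.05 and 2 astrocyte markers lower in DESeq2. Without progenitor library 4 labelled mutant, 8 of the 12 oligodendrocyte lineage markers were called, and with the Y-linked covariate the progenitor calls over these 4 lists came to 4. No marker of any list was at 0 in all libraries, and the part of cell composition in the changes of the 10 genes was not tested.

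Genes with the most similar profiles were sought for the 9 genes called in either experiment, by Pearson's r of log2 CPM centred within each experiment, over 14 libraries and 14449 genes. The value contains the difference between groups as well as that between libraries, which also share depth, so it is a description. Cadps2 was most like Barx2, a homeobox gene (r = 0.98), and Dock5 (0.97), and with libraries centred within each group these values were 0.81 and 0.68. Genes with profiles close to that of Calb1 included Gnao1, a G protein subunit (0.97), and those close to Syt17 included Camk2d, a calcium/calmodulin-dependent kinase subunit (0.96). Tmem215 was most like Grin1, an NMDA receptor subunit (0.95), and Naa60 (0.94). Kitl was most like Lin7a (0.95) and Dact2 (0.92), and Dgkb most like Ccdc96 (0.93) and Plekhb1 (0.93). Of the genes that rose, Mdga1 was most like Robo4 (0.95) and Rfx1 (0.95) and Rasgrf2 most like Nt5dc3 (0.97) and Tmem131l (0.97). Otof was most like Fbxl5 (0.93) and Dek (0.91). Among the 10 genes themselves the highest r was that of Calb1 with Syt17, 0.95, or 0.64 when centred within groups.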

How the data were processed

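The authors deposited read counts per gene symbol, whole numbers that are not normalised, in a table for each experiment. HISAT2, featureCounts, DESeq2 and build mm10 are named in the submitters' processing notes, without versions, annotation or strand setting. The libraries were directional, made from polyadenylated RNA and read as pairs of 150 bases, per the labels' protocols. The authors also deposited tables of log2 fold changes and adjusted p-values, per the file headers, in which 0 also stands for a missing adjusted p. The tables held 0 columns of other samples.

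Each experiment was fitted alone with edgeR 4.0.16 (R 4.3.3): filterByExpr, TMM, robust glmQLFit and glmQLFTest, with Benjamini-Hochberg adjustment over all tested genes and calls at an adjusted p under 0.05. The SE was taken as the ratio of the log2 fold change to the root of F, and 95% intervals use the t distribution. The interaction of experiment and label came from a fit of all 14 libraries. CPM use TMM-scaled library totals, and log2 CPM for profile likeness a prior count of 2. Lengths are unions of GENCODE M21 exons and promoters are RefSeq's, matched by symbol for 7 of the 10 genes. Older symbols of 3 list genes were matched through RefSeq synonyms, so that Gucy1a3 was read as Gucy1a1.

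The 10 genes and all lists were chosen with earlier results of these data known. The genes named are the 10, the 3 smallest p values per list and experiment, direct relatives or receptors, and the 2 most similar genes; for the glial and vascular lists the first progenitor gene is printed, and a few genes that the rule names are not reported here. Replicates of a group differed beyond sampling noise, with chi-square at least 6.31 per degree of freedom. Alternatives were DESeq2 1.42.0, other scaling, filter, threshold and fitting choices, a replicate block, a Y-linked covariate and leaving out libraries; the fit of libraries without Y-linked counts and that of the interaction with postmitotic libraries 1 and 2 alone were added after seeing the data. The tests were tried on simulated counts with known changes.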

Additional observations from a re-analysis of the deposited data

Results flagged for a closer look

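For 6 of the 10 genes the change under the same contrast differed between the progenitor and postmitotic experiments in edgeR's interaction test, which is why they are listed here. As progenitor minus postmitotic log2 fold changes, the differences were 0.70 for Cadps2, -0.68 for Calb1, 0.47 for Rasgrf2, 0.68 for Mdga1, -0.92 for Otof and -0.78 for Syt17. Of these, Otof (-0.39 ± 0.11 and 0.53 ± 0.15, log2 ± SE) and Mdga1 (0.53 ± 0.08 and -0.15 ± 0.09) had opposite signs in the experiments, with only the first value of each past the test. No group of 4 libraries held a library of any of the 10 genes far enough from the others to be listed, the Wfs1 value of progenitor library 4 labelled mutant included.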

How the results depend on the processing

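Leaving out 1 library at a time left 7 to 9 of the 10 genes called in the progenitor experiment, 2 to 3 in the postmitotic one and 4 to 7 in the interaction test, and 2383 to 3712, 160 to 467 and 598 to 1481 of all genes. Over all alternatives, 455 of 519 values of single genes kept their direction and side of the threshold, 50 lost the call, 4 gained it and 10 changed sign. Values that were not called at first and stayed so are among those kept. Only values called in the main fit could lose the call, so 519 is not the base for the 50. With Y-linked CPM as a covariate 5 of the 10 genes were called in the progenitor experiment, 2 in the postmitotic one (Kitl lost its call) and 1 in the interaction test, with 948, 296 and 275 of all genes. In the progenitor libraries without Y-linked counts, where the lone library labelled mutant is assumed to vary like the controls, 4 of the 10 genes (Cadps2, Calb1, Rasgrf2 and Syt17) and 393 genes in all were called. At an adjusted p under 0.01 the counts were 1567, 146 and 292 of all genes in the progenitor, postmitotic and interaction tests, with 1 of the 10 genes in the postmitotic and 2 in the interaction test. Keeping all genes with a count gave 723 postmitotic calls, and DESeq2 gave 1640 interaction calls.

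The sign changed only for values that had not passed the test. Wfs1 was 0.0927 in the progenitor experiment and 0.0134 in the interaction with the Y-linked covariate, and 0.0559 in the progenitor libraries without Y-linked counts. Its values without 1 library ran from -0.179 to 0.0280 in the postmitotic and from -0.274 to 0.0637 in the interaction test. Postmitotic Rasgrf2 and Tmem215 ran from -0.00679 to 0.0798 and from -0.32 to 0.11, and with controls 1 and 2 and libraries 1 and 2 labelled mutant alone they were -0.00909 and 0.17. With plain library totals postmitotic control Rasgrf2 was 165 CPM. The causes of these changes were not tested.

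Same-numbered deviations correlated between -0.44 and 0.09. The latter was that of progenitor replicate 4, the only one whose best match carried its own number. With so few libraries these values cannot show whether replicate numbers pair the libraries. With the replicate number as a block, progenitor Cadps2 had an edgeR adjusted p of 0.0607, 8 of the 10 genes were called in the progenitor experiment against 9 without it, and the interaction test called 4 of the 10 genes and 659 in all. Depth limits Tmem215, with 9 to 17 counts per postmitotic library.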
